A study of Mus musculus with 17 samples.

Results

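The 32 genes described here encode the heat shock transcription factor Hsf1, the cytosolic and mitochondrial Hsp70 and Hsp90 machinery with its partner proteins, and most subunits of the cytosolic chaperonin. They were taken by name from a given list, which was drawn up with earlier results of these data known. All 32 were found among the 48820 gene identifiers of the count table. Their levels were read by bulk RNA sequencing in 17 libraries of epidermal stem cells, each made from 1000 GFP-positive cells sorted by flow cytometry. The mice were C57BL/6, 3 months old, treated with 4-OHT (4-hydroxytamoxifen), and carried an EGFP-CreERT2 cassette at Lrig1, Lgr6 or Lgr5, so that the marker gene drives both the sorted fluorescence and the recombinase. The 6 groups were Pelo -/- Lrig1 (3 libraries), WT Lrig1 (2 libraries), Pelo -/- Lgr6, WT Lgr6, Pelo -/- Lgr5 and WT Lgr5 (3 libraries each). Pelo -/- stands for the floxed pair Pelo fl/fl and WT for Pelo fl/+, so the control mice also carried 1 floxed allele, the cassette and the drug. Whether the replicates of a group are different mice is not stated in the labels, and the p-values measure only the spread among these samples, which may be technical.

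Chaperones bind unfolded protein and help it reach its native shape. Hsp70 proteins hold short exposed stretches in a cycle that J-domain proteins start and nucleotide exchange factors such as Hsph1 and Bag1 end, and Stip1 can pass the client on to Hsp90. The cytosolic chaperonin is a ring-shaped chamber in which actin and tubulin fold. Under protein-damaging stress Hsf1 binds repeated GAA units in the promoters of heat shock genes and raises their transcription. Pelo acts in the rescue of ribosomes that have stalled, and Hspa14 with Dnajc2 forms the chaperone pair that sits on mammalian ribosomes near emerging chains. Lgr5 marks stem cells of the lower hair follicle, and Lgr6 and Lrig1 mark cells of its upper part. The comparisons ask whether loss of Pelo changed these genes in each population and how their levels differed between populations.

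The start-site sequences of 25 of the 32 genes were in the RefSeq promoter table (GRCm38.p6), which gives 250 bases before and 50 after each start. They were searched on both strands for a paired unit, which is GAA and TTC in either order with any 2 bases between them, and for a triple unit, in which one more such block follows after 2 more bases (GAA, TTC, GAA or TTC, GAA, TTC). Each triple unit contains paired units. A triple unit stood in 4 of the 25 genes (Hspd1, Hspe1, Hsph1 and Dnajb6), against 0.662% of the 27025 genes in that table. A paired unit stood in 13 of the 25 genes, against 16.97% of all genes. Hspe1 is shown because it carries the longest run of units and shares this stretch with Hspd1, which is read from the opposite strand. The run of 18 bases in capitals begins 89 bases before the start of Hspe1 (chr1:55088028-55088177, plus strand, 120 bases before to 30 after the start).
Hspe1: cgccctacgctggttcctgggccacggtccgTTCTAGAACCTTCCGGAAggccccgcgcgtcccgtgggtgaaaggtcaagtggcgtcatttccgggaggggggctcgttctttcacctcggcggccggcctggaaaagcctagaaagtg
In Hsph1 the triple unit, in capitals, begins at transcribed base 16, and 30 bases around it are shown (chr5:149636279-149636308, minus strand).
Hsph1: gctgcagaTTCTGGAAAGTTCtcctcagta
The stress-inducible pair Hspa1a (chr17:34972127-34972406, minus strand) and Hspa1b (chr17:34959209-34959488, minus strand) is shown because the results below turn on it, a choice made after its values were seen. The 280 bases run from 250 before to 30 after each start, and the capitals mark the paired unit, which begins 104 bases before the start in both. The 300-base windows of these genes were identical at 296 positions, and no triple unit stood in them.
Hspa1a: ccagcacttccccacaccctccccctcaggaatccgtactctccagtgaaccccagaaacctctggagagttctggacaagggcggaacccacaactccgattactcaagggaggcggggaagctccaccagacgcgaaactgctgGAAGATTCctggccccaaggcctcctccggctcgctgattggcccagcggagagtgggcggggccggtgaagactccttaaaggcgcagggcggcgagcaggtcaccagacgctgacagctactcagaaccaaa
Hspa1b: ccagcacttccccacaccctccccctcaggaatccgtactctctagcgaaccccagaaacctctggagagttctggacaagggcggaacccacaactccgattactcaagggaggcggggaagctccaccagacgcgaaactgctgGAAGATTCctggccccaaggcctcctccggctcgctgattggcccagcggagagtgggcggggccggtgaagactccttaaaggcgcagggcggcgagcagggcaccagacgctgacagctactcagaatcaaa
A match is a description of letters only, and binding of Hsf1 was not measured.

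Total counts per library lay between 9647507 and 28098841, with the 6 Lgr5 libraries at 9647507 to 17219054 and the 11 others at 13333497 to 28098841. The 32 genes took 0.495% to 0.738% of the counts in the Lrig1 and Lgr6 libraries, and 0.338% to 0.578% in the Lgr5 libraries. Every one of the 32 had at least 39 counts in every library and all passed the filter on low counts, so none is near the limit of detection. All levels below are CPM, counts divided by the TMM-scaled library size and put on the usual per-million scale. TMM is a factor that evens out the bulk of the genes, and it was 0.688 to 0.964 in Lrig1 and Lgr6 libraries, against 0.990 to 1.91 in Lgr5 libraries. WT Lgr5 replicate 3 stood apart, with the lowest sum over the 32 genes (1781 CPM) and the most genes detected at 5 counts or more (32255). Several results that rest on it are given with and without it. Pelo itself had 3.82, 0.483 and 0.857 CPM in Pelo -/- Lrig1, against 6.05 and 3.72 CPM in WT Lrig1. It had 3.10 to 4.94 CPM in Pelo -/- Lgr6, against 2.02 to 5.39 CPM in WT Lgr6, and 11.8 to 23.6 CPM in Pelo -/- Lgr5, against 5.90 to 17.4 CPM in WT Lgr5. Pelo levels thus overlapped between the genotypes in all 3 populations, and the labels were used as given: Pelo -/- below means the libraries labelled so. In bulk samples, fewer cells of a type and less RNA per cell cannot be told apart.

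Levels of different genes were compared after division by exon length and scaling to the same sum in each library (TPM). Hsp90ab1, the constitutive cytosolic Hsp90, was the highest of the 32 in both Lrig1 groups, at 530.5 ± 37.9 in Pelo -/- Lrig1 and 452 ± 76.9 in WT Lrig1 (TPM, mean ± SD, n = 3 and n = 2). It was also the highest in the Lgr6 groups, at 818 ± 235 in Pelo -/- Lgr6 and 639.9 ± 225 in WT Lgr6. In both Lgr5 groups the highest was instead Hspa1b, a stress-inducible Hsp70, at 404 ± 82.1 in Pelo -/- Lgr5 and 275 ± 59.5 in WT Lgr5. Stress-inducible Hsp90aa1 came next there, at 238 ± 41.9 and 248 ± 69.4, and in WT Lgr5 the spreads of these top genes overlap. Of the 50-base runs of Hspa1b and Hsp90aa1, 62.3% and 47.5% also occur in other annotated genes. The order of genes may therefore depend on how shared reads were counted, which is not known. Hsf1 and Dnajc7 had the lowest length-scaled levels in all 6 groups, with group means of 2.68 to 5.86 for Hsf1 and 2.20 to 5.38 for Dnajc7 on that scale.

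**Figure D1:**
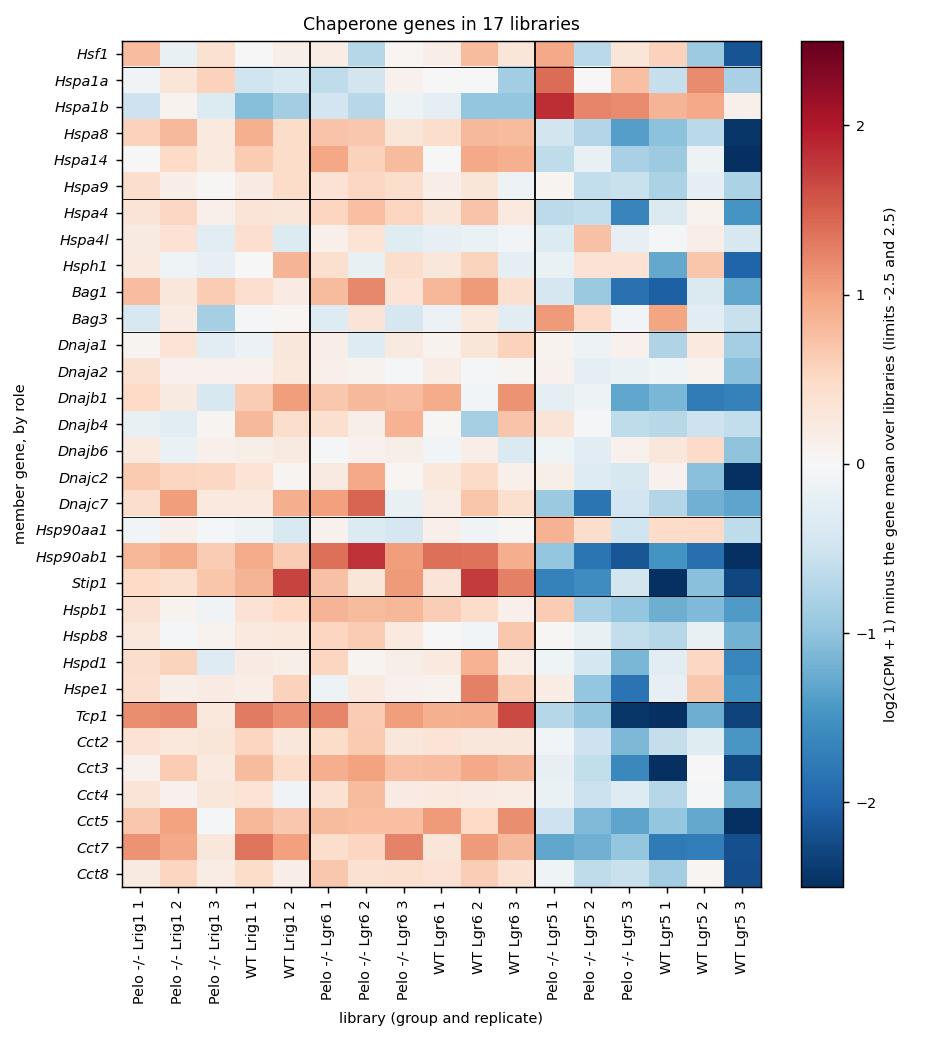
Each row is a gene, grouped by role, and each column a library (group and replicate). Colour is log2(CPM + 1) minus the mean of that gene over the 17 libraries, limited to the range -2.5 to 2.5. The 6 Lgr5 columns at the right are low for Hsp90ab1, Tcp1, Cct7 and Stip1 and high for Hspa1b.

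Both the Lrig1 and Lgr6 populations differed from Lgr5 in many genes, and 7 of the 32 were called in all 4 comparisons. Hsp90ab1, the chaperonin subunits Cct7, Tcp1 and Cct5, the Hsp70 to Hsp90 adaptor Stip1 and the constitutive Hsp70 Hspa8 were called higher in all 4 comparisons with Lgr5, and Hspa1b was called lower in all 4. A gene was called at an adjusted p under 0.05 in the edgeR quasi-likelihood test over 30405 genes, here and below. In Pelo -/- Lrig1 over Pelo -/- Lgr5, 8 of the 32 genes were called higher and 1 lower, where 5.77% of all genes tested were called higher, 2.08% lower and 7.85% either way. In Pelo -/- Lgr6 over Pelo -/- Lgr5, 11 were called higher and 1 lower, against 7.23% higher, 2.72% lower and 9.95% either way. In WT Lrig1 over WT Lgr5, 9 were called higher and 1 lower, against 9.09% higher, 1.99% lower and 11.1% either way. In WT Lgr6 over WT Lgr5, 11 were called higher and 1 lower, against 10.6% higher, 1.57% lower and 12.2% either way.

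These shares must be read against genes of like level, because weakly expressed genes are seldom called. Among genes with a mean of at least 5 CPM, 18.4% and 23.2% were called in the Pelo -/- comparisons of Lrig1 and Lgr6 with Lgr5, and 26.6% and 30.5% in the WT ones. The counts among the 32 lay near these shares in the WT comparisons and somewhat above them in the Pelo -/- ones. That difference was not tested. The median log2 fold change of the 32 genes was 0.68 and 0.79 in the Pelo -/- comparisons and 1.00 and 0.90 in the WT ones. Over genes with a mean of at least 5 CPM it was 0.43 and 0.47 in Pelo -/- and 0.70 and 0.75 in WT, and over all genes tested -0.64, -0.61, -0.99 and -0.49. Without WT Lgr5 replicate 3 the WT medians were 0.66 and 0.60 over the 32 genes, and -0.53 and -0.22 over all genes tested. Libraries of the compared groups did not overlap for 16 and 20 of the 32 genes in the Pelo -/- comparisons and for 20 and 20 in the WT ones, beside 32.1%, 32.8%, 45.0% and 29.8% of all genes. Of the calls, 7 were shared between the Lrig1 comparisons, which is 77.8% of those in Pelo -/- and 70.0% of those in WT, and 10 between the Lgr6 comparisons, 83.3% of each. These comparisons share no library between genotypes. The like share over all called genes was not computed, so whether this agreement is particular to the 32 genes is not known.

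The split between higher and lower depends on the scaling, since the median of all genes was not at 0. With only genes of at least 5 CPM in the fit, that median was -0.03 and -0.05 in the Pelo -/- comparisons of Lrig1 and Lgr6 with Lgr5 and -0.06 and -0.04 in the WT ones. The 32 genes then gave 6 higher and 2 lower calls in Pelo -/- Lrig1, 8 and 4 in Pelo -/- Lgr6, 7 and 3 in WT Lrig1, and 9 and 5 in WT Lgr6. Of all 11061 genes in these fits, 2544, 3132, 3162 and 3666 were called either way in the same order. Calls to higher level were 53.2%, 50.7%, 55.3% and 52.9% of all calls in these fits, against 73.5%, 72.6%, 82.1% and 87.2% under the main scaling. Over the 4 comparisons and 6 ways of scaling and filtering, 15 genes stayed above 0 throughout, 4 stayed below 0 throughout (Hspa1a, Hspa1b, Hsp90aa1 and Bag3) and 13 took both signs. Overlap depends on the scale too, as a comparison added after the values were seen showed, and statements on it are for TMM-scaled CPM unless another scale is named. All 11 Lrig1 and Lgr6 libraries were above all 6 Lgr5 libraries for 13 of the 32 genes and below them for 1 (Hspa1b) on that scale. On CPM of the raw total they were above for 5 (Hspa8, Hsp90ab1, Tcp1, Cct5 and Cct7) and below for 3 (Hspa1b, Hsp90aa1 and Bag3). Per length they were above for 3 (Hsp90ab1, Tcp1 and Cct5) and below for the same 3. Shares over all genes were not computed for these pooled counts, so they do not set the 32 genes apart from others.

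**Figure D2:**
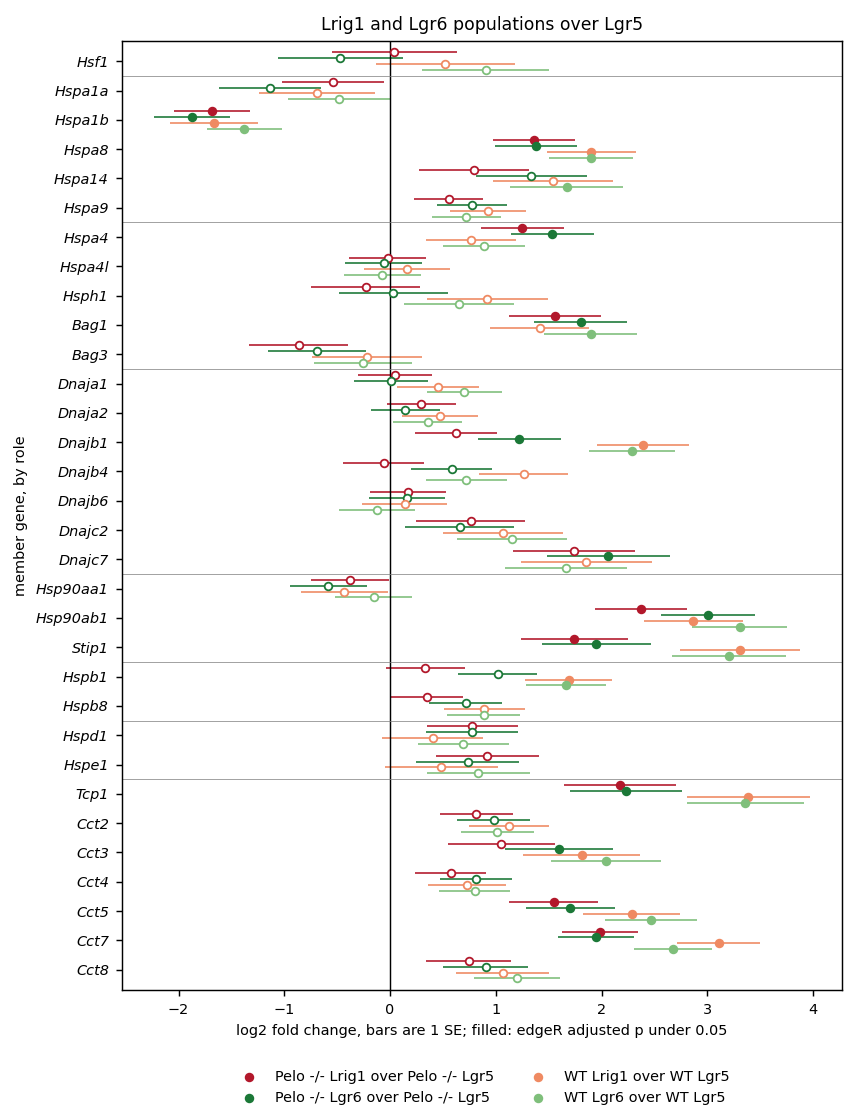
Log2 fold change (x axis, bars 1 SE) of each of the 32 genes in Lrig1 and Lgr6 over Lgr5, for Pelo -/- and WT libraries. Filled points have an edgeR adjusted p under 0.05. Hsp90ab1, Cct7, Tcp1, Cct5, Stip1 and Hspa8 are filled and to the right in all 4 comparisons, and Hspa1b is filled and to the left in all 4.

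Within the Hsp70 family, constitutive Hspa8 was higher and inducible Hspa1b lower in Lrig1 and Lgr6 than in Lgr5. Hspa8 (chr9:40800984-40810087), the main constitutive cytosolic Hsp70, had 861, 1006 and 679 CPM in Pelo -/- Lrig1 and 1071 and 796 CPM in WT Lrig1. It had 944, 919 and 709 CPM in Pelo -/- Lgr6 and 777, 1011 and 1002 CPM in WT Lgr6. It had 420.4, 347 and 221 CPM in Pelo -/- Lgr5 and 283, 359 and 106 CPM in WT Lgr5. All 11 Lrig1 and Lgr6 libraries were above all 6 Lgr5 libraries. The log2 fold change over Lgr5 was 1.36 ± 0.39 (SE) in Pelo -/- Lrig1, 1.38 ± 0.39 in Pelo -/- Lgr6, 1.90 ± 0.42 in WT Lrig1 and 1.90 ± 0.39 in WT Lgr6, with edgeR adjusted p of 0.0278, 0.0222, 0.00313 and 0.00141. The Pelo -/- calls were lost without Pelo -/- Lrig1 replicate 1 or 2, Pelo -/- Lgr6 replicate 1 or 2 or Pelo -/- Lgr5 replicate 2 or 3 (edgeR adjusted p 0.0637 to 0.131), and the WT Lrig1 call without WT Lrig1 replicate 1 (0.0559). With the compared groups alone the Pelo -/- Lgr6 and WT Lgr6 calls were lost (edgeR adjusted p 0.054 and 0.055).

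Hspa1b (chr17:34956436-34959238), which heat and other proteotoxic stress induce, had 166, 255 and 189 CPM in Pelo -/- Lrig1 and 113 and 129.7 CPM in WT Lrig1. It had 172, 147 and 217 CPM in Pelo -/- Lgr6 and 200.4, 122 and 122 CPM in WT Lgr6. It had 863, 556 and 539 CPM in Pelo -/- Lgr5 and 430.2, 463 and 261 CPM in WT Lgr5. Every Lgr5 library, WT Lgr5 replicate 3 included, was above every library of the other populations. The log2 fold change over Lgr5 was -1.68 ± 0.36 in Pelo -/- Lrig1 and -1.87 ± 0.36 in Pelo -/- Lgr6, with edgeR adjusted p of 0.00327 and 0.000939. It was -1.66 ± 0.41 in WT Lrig1 and -1.38 ± 0.35 in WT Lgr6, with edgeR adjusted p of 0.00771 and 0.00896. The Pelo -/- calls held without any 1 library. The WT Lrig1 call was lost without WT Lrig1 replicate 1 (edgeR adjusted p 0.193), WT Lrig1 replicate 2 (0.135) or WT Lgr5 replicate 2 (0.0513), and the WT Lgr6 call without WT Lgr6 replicate 3 (0.0552) or WT Lgr5 replicate 2 (0.0502).

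Hspa1a (chr17:34969190-34972156), its neighbour with nearly the same coding sequence, had 40.8, 53.9 and 64.9 CPM in Pelo -/- Lrig1 and 30.4 and 32.9 CPM in WT Lrig1. It had 27.4, 31.2 and 47.0 CPM in Pelo -/- Lgr6 and 42.8, 43.5 and 23.1 CPM in WT Lgr6, and 115, 43.8 and 73.4 CPM in Pelo -/- Lgr5 and 28.9, 99.9 and 24.3 CPM in WT Lgr5. The populations overlapped, and under the main scaling no fold change passed the test (-0.54 ± 0.48 in Pelo -/- Lrig1 over Lgr5, -1.14 ± 0.49 in Pelo -/- Lgr6, -0.69 ± 0.55 in WT Lrig1 and -0.49 ± 0.48 in WT Lgr6). With only genes of at least 5 CPM in the fit, Hspa1a was called lower in 3 of the 4, at -1.62 in Pelo -/- Lgr6, -1.33 in WT Lrig1 and -1.15 in WT Lgr6 (edgeR adjusted p 0.00843, 0.0481 and 0.0437). Hspa1a made up 13.8% to 26.3% of the counts of both genes in the Lrig1 and Lgr6 libraries, and 6.30% to 17.7% in the Lgr5 libraries. Of all 50-base runs in its transcripts 58.8% also occur in Hspa1b, so how the counting split reads between them is uncertain. Treated as 1 gene, they were lower in Lrig1 and Lgr6 than in Lgr5 by edgeR in all 4 comparisons, with log2 fold changes of -1.51 and -1.77 in Pelo -/- Lrig1 and Lgr6 and -1.51 and -1.24 in WT Lrig1 and Lgr6 (adjusted p 0.00791, 0.00162, 0.0157 and 0.0195).

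Hspa9, the mitochondrial Hsp70, had 151 to 202 CPM in Pelo -/- Lrig1, 171 and 203 CPM in WT Lrig1, 189.8 to 212 CPM in Pelo -/- Lgr6 and 136 to 184 CPM in WT Lgr6. It had 96.4 to 155 CPM in Pelo -/- Lgr5 and 84.7 to 124 CPM in WT Lgr5, and was not called. Hspa14 (chr2:3488850-3512814), the ribosome-bound Hsp70, had 40.8, 58.4 and 48.7 CPM in Pelo -/- Lrig1 and 64.1 and 56.9 CPM in WT Lrig1. It had 81.6, 61.9 and 71.9 CPM in Pelo -/- Lgr6 and 40.7, 80.4 and 77.1 CPM in WT Lgr6, and 26.1, 36.2 and 23.1 CPM in Pelo -/- Lgr5 and 21.6, 37.6 and 3.23 CPM in WT Lgr5. All Lgr5 libraries were below all others on this scale, and the low value was WT Lgr5 replicate 3. On CPM of the raw total they overlapped, at 33.3 to 74.5 CPM in Lrig1 and Lgr6 libraries and 6.12 to 52.1 CPM in Lgr5 libraries. Hspa14 was called in WT Lgr6 over WT Lgr5 (1.67 ± 0.53, edgeR adjusted p = 0.038), and the call was lost without that library (log2 fold change 1.05, adjusted p = 0.148), without WT Lgr5 replicate 1 (0.088) and without WT Lgr6 replicate 2 or 3 (0.116 and 0.269). It was also lost with RLE scaling, with only genes of at least 5 CPM, with the compared groups alone and with protein-coding genes alone (edgeR adjusted p 0.0593 to 0.163), and in DESeq2 (adjusted p = 0.069). Its ribosome partner Dnajc2, a J-domain protein, had 45.2, 42.2 and 41.2 CPM in Pelo -/- Lrig1, 36.7 and 29.8 CPM in WT Lrig1, 33.6, 56.4 and 29.6 CPM in Pelo -/- Lgr6 and 34.5, 40.1 and 31.1 CPM in WT Lgr6. It had 31.7, 22.6 and 21.4 CPM in Pelo -/- Lgr5 and 30.8, 13.3 and 3.55 CPM in WT Lgr5, and was not called in any comparison.

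**Figure D3:**
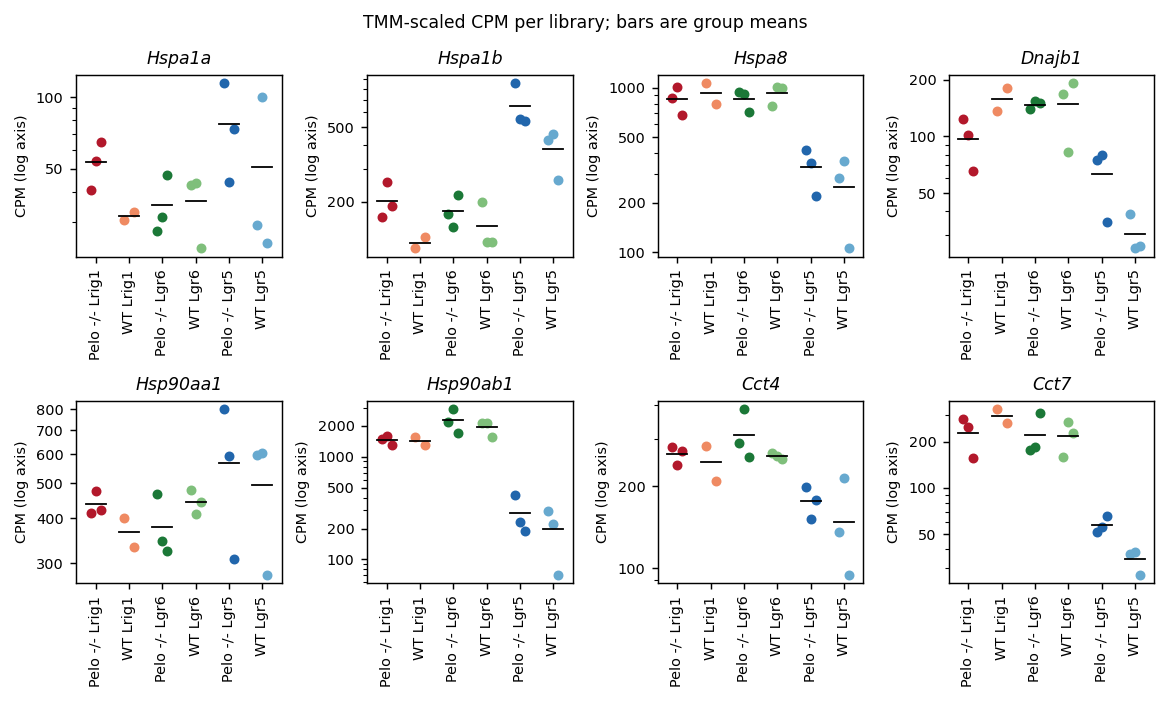
CPM of 8 of the genes in each library (points, log axis) with the group mean (bar), by group on the x axis. Hspa1b is highest in the Pelo -/- Lgr5 and WT Lgr5 groups, Hspa8, Hsp90ab1 and Cct7 are lowest there, and Hsp90aa1 and Hspa1a overlap between populations on this TMM-scaled axis.

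Of the Hsp90 genes, constitutive Hsp90ab1 was higher in Lrig1 and Lgr6 than in Lgr5, and inducible Hsp90aa1 was not called under the main scaling. Hsp90ab1 (chr17:45567775-45573271) had 1484, 1587 and 1295 CPM in Pelo -/- Lrig1 and 1572 and 1291 CPM in WT Lrig1. It had 2153, 2906 and 1703 CPM in Pelo -/- Lgr6 and 2145, 2126 and 1552 CPM in WT Lgr6. It had 424, 233 and 187 CPM in Pelo -/- Lgr5 and 294, 223 and 71.1 CPM in WT Lgr5. Even the highest Lgr5 library lay far below the lowest of the 11 others. The log2 fold change over Lgr5 was 2.37 ± 0.43 in Pelo -/- Lrig1 and 3.00 ± 0.44 in Pelo -/- Lgr6, with edgeR adjusted p of 0.000786 and 5.46e-05. It was 2.87 ± 0.47 in WT Lrig1 and 3.31 ± 0.45 in WT Lgr6, with edgeR adjusted p of 0.00013 and 1.43e-05. These calls were kept under every alternative run, and without WT Lgr5 replicate 3 the WT values were 2.49 and 2.81.

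Hsp90aa1 (chr12:110690605-110702728) had 414, 474 and 421 CPM in Pelo -/- Lrig1 and 399.7 and 333 CPM in WT Lrig1. It had 467, 345 and 324 CPM in Pelo -/- Lgr6 and 479, 412 and 442 CPM in WT Lgr6, and 801, 593 and 308 CPM in Pelo -/- Lgr5 and 599.6, 605 and 279 CPM in WT Lgr5. On this scale the populations overlapped, since the lowest Lgr5 library of each genotype lay below the Lrig1 and Lgr6 libraries. On CPM of the raw total they did not, at 256 to 415 CPM in Lrig1 and Lgr6 libraries and 488 to 838 CPM in Lgr5 libraries. Under the main scaling no fold change was called in edgeR (-0.38 ± 0.36 in Pelo -/- Lrig1, -0.58 ± 0.37 in Pelo -/- Lgr6, -0.43 ± 0.41 in WT Lrig1 and -0.16 ± 0.36 in WT Lgr6 over Lgr5). With only genes of at least 5 CPM in the fit it was called lower in 3 of the 4, at -1.09 in Pelo -/- Lgr6, -1.17 in WT Lrig1 and -0.92 in WT Lgr6 (edgeR adjusted p 0.0115, 0.0167 and 0.0254). Stip1 (chr19:7020702-7039967) had 35.0 to 42.8 CPM in Pelo -/- Lrig1, 47.8 and 86.7 CPM in WT Lrig1, 32.7 to 56.3 CPM in Pelo -/- Lgr6 and 33.1 to 91.0 CPM in WT Lgr6. It had 7.45 to 18.7 CPM in Pelo -/- Lgr5 and 3.65 to 12.1 CPM in WT Lgr5, which did not overlap with the rest on this scale. On CPM of the raw total the highest Lgr5 library (29.7 CPM) passed the lowest of the others (28.14 CPM). Its log2 fold change over Lgr5 was 1.74 ± 0.51 and 1.95 ± 0.51 in Pelo -/- Lrig1 and Lgr6, and 3.31 ± 0.57 and 3.20 ± 0.54 in WT Lrig1 and Lgr6 (edgeR adjusted p 0.0324, 0.0137, 0.000235 and 0.000157). The Pelo -/- calls of Stip1 were lost without Pelo -/- Lgr5 replicate 1 or 2, without any 1 library of Pelo -/- Lrig1, or without Pelo -/- Lgr6 replicate 3 (edgeR adjusted p 0.0528 to 0.131). That in Pelo -/- Lrig1 was lost also with only genes of at least 5 CPM (0.0707) and with the compared groups alone (0.0544).

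Ratios of a pair of genes within a library do not depend on its scaling. Hsp90ab1 counts over Hsp90aa1 counts were 3.07 to 8.41 (median 3.93) in the 11 Lrig1 and Lgr6 libraries, and 0.255 to 0.607 (median 0.442) in the 6 Lgr5 libraries. Per exon length the same ratio was 4.03 to 11.03 in Lrig1 and Lgr6 libraries and 0.334 to 0.796 in Lgr5 libraries, so Hsp90ab1 exceeded Hsp90aa1 in each of the 11 and fell short of it in each of the 6. Hspa8 counts over Hspa1b counts were 3.26 to 9.47 in Lrig1 and Lgr6 libraries and 0.405 to 0.775 in Lgr5 libraries. Chaperonin counts summed over the 7 subunits were 7.24 to 17.8 times those of Hspa1b in Lrig1 and Lgr6 libraries, and 1.10 to 1.84 times in Lgr5 libraries. None of these ranges overlapped. They were chosen after the values were seen and were not tested. Of the 50-base runs of Hsp90aa1, 47.5% occur in another annotated gene, against 3.44% for Hsp90ab1. For Hspa8 and Hspa1b the shares were 39.4% and 62.3%. How reads from shared runs were counted is not known, so the side of 1 on which a ratio lies may depend on it.

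**Figure D4:**
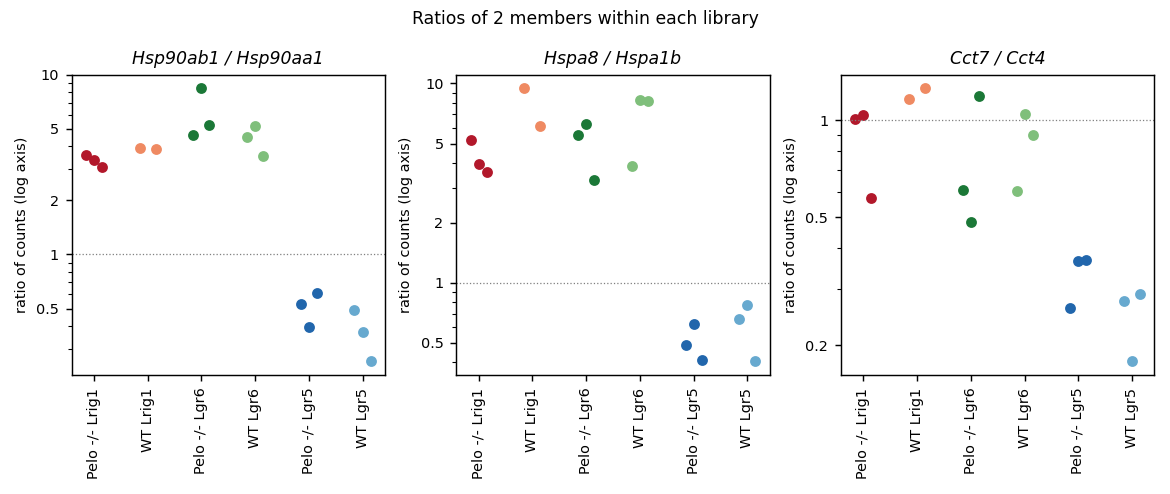
Ratio of the counts of a pair of genes in each library (points, log axis) by group, with a dotted line at a ratio of 1. Hsp90ab1 over Hsp90aa1 and Hspa8 over Hspa1b lie above 1 in all Lrig1 and Lgr6 libraries and below 1 in all Lgr5 libraries, and Cct7 over Cct4 is at most 0.367 in Lgr5 libraries and at least 0.483 in the others.

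The subunits of the cytosolic chaperonin were all above 0 on the log2 scale in the 4 comparisons with Lgr5, but by unequal amounts. Of 7 subunits, 3 were called higher in Pelo -/- Lrig1, 4 in Pelo -/- Lgr6, 4 in WT Lrig1 and 4 in WT Lgr6, with medians of 1.05, 1.60, 1.81 and 2.04. Cct4 was just below 0 in 1 of 24 combinations of comparison and scaling (-0.01). Cct7 (chr6:85451514-85468475) had the smallest p of the 32 genes in both Lrig1 comparisons. It had 281, 248 and 155 CPM in Pelo -/- Lrig1, 326 and 264 CPM in WT Lrig1, 175, 186 and 305 CPM in Pelo -/- Lgr6 and 159, 270.1 and 226 CPM in WT Lgr6. It had 51.9, 55.5 and 65.5 CPM in Pelo -/- Lgr5 and 37.2, 38.2 and 27.2 CPM in WT Lgr5, which overlapped with no library of Lrig1 or Lgr6. The log2 fold change over Lgr5 was 1.98 ± 0.36 and 1.95 ± 0.36 in Pelo -/- Lrig1 and Lgr6, and 3.11 ± 0.40 and 2.68 ± 0.37 in WT Lrig1 and Lgr6 (edgeR adjusted p 0.000736, 0.000648, 7.62e-06 and 1.65e-05), and no alternative ended these calls.

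Tcp1 (chr17:12915701-12925067), the alpha subunit, had 189, 193 and 101 CPM in Pelo -/- Lrig1, 208 and 187 CPM in WT Lrig1, 197, 131 and 174 CPM in Pelo -/- Lgr6 and 156, 159 and 265 CPM in WT Lgr6. It had 50.5, 42.1 and 14.6 CPM in Pelo -/- Lgr5 and 5.002, 35.5 and 16.1 CPM in WT Lgr5. Lgr5 was lower without overlap, at log2 fold changes of 2.17 ± 0.53 and 2.23 ± 0.53 for Pelo -/- Lrig1 and Lgr6 over Lgr5, and 3.39 ± 0.58 and 3.36 ± 0.55 for WT (edgeR adjusted p 0.0103, 0.00678, 0.000278 and 0.000156). Cct5 (chr15:31590800-31601804) had 241 to 501 CPM in Pelo -/- Lrig1, 402 and 448 CPM in WT Lrig1, 421 to 435 CPM in Pelo -/- Lgr6 and 356 to 565 CPM in WT Lgr6. It had 99.7 to 176 CPM in Pelo -/- Lgr5 and 30.1 to 128 CPM in WT Lgr5. Its log2 fold change over Lgr5 was 1.55 ± 0.42 and 1.70 ± 0.42 in Pelo -/- Lrig1 and Lgr6, and 2.29 ± 0.46 and 2.46 ± 0.43 in WT (edgeR adjusted p 0.0214, 0.00901, 0.00123 and 0.000261). Cct3 was called in Pelo -/- Lgr6 (1.60 ± 0.51), WT Lrig1 (1.81 ± 0.55) and WT Lgr6 (2.04 ± 0.52), and Cct2, Cct4 and Cct8 in none. Without Pelo -/- Lgr5 replicate 3, the Pelo -/- calls of Tcp1 in Lrig1 and of Cct5 in both populations were lost (edgeR adjusted p 0.0523 to 0.0971), and Cct5 in Pelo -/- Lrig1 also without Pelo -/- Lrig1 replicate 1 or 2 or Pelo -/- Lgr5 replicate 2 (0.0701 to 0.115). The Cct3 calls were lost without WT Lgr5 replicate 3 (0.169 in Lrig1 and 0.116 in Lgr6), without WT Lrig1 replicate 1 or 2 or WT Lgr5 replicate 1 (0.108 to 0.218), without WT Lgr6 replicate 3 (0.0884), and without Pelo -/- Lgr5 replicate 2 or 3 or any 1 library of Pelo -/- Lgr6 (0.0867 to 0.183). In WT Lrig1 and Pelo -/- Lgr6 they were lost also with RLE scaling (0.0644 and 0.0715 in edgeR), with only genes of at least 5 CPM (0.0645 and 0.064) and in DESeq2 (0.0561 and 0.0577), and in WT Lrig1 and WT Lgr6 with the compared groups alone (0.115 and 0.0742 in edgeR). Exons of Tcp1 overlap Acat3 by 571 bases and Mrpl18 by 141 bases on the opposite strand, and those of Cct7 overlap Pradc1 by 214 bases, so without knowledge of the strand used in counting part of these counts may belong to the partner gene.

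Among the genes that act on the Hsp70 cycle, Dnajb1 (chr8:83608193-83612653), the main J-domain partner of inducible Hsp70, was called higher in both WT comparisons and, less firmly, in Pelo -/- Lgr6. It had 124, 102 and 65.8 CPM in Pelo -/- Lrig1, 136 and 181 CPM in WT Lrig1, 139, 153 and 149.8 CPM in Pelo -/- Lgr6 and 168, 82.9 and 192 CPM in WT Lgr6. It had 74.5, 80.0 and 35.1 CPM in Pelo -/- Lgr5 and 38.8, 25.4 and 26.3 CPM in WT Lgr5. Every WT Lgr5 library was below every Lrig1 and Lgr6 library, and Pelo -/- Lgr5 overlapped both Pelo -/- Lrig1 and WT Lgr5. The log2 fold change over Lgr5 was 0.62 ± 0.39 in Pelo -/- Lrig1 (edgeR adjusted p = 0.33), 1.22 ± 0.39 in Pelo -/- Lgr6 (0.0469), 2.39 ± 0.43 in WT Lrig1 (0.000417) and 2.29 ± 0.41 in WT Lgr6 (0.000277). The WT calls held without any 1 library, and the Pelo -/- Lgr6 call was lost without any 1 library of Pelo -/- Lgr6 or Pelo -/- Lgr5 (edgeR adjusted p 0.0507 to 0.201). That call was also lost with RLE scaling, without the filter, with only genes of at least 5 CPM, with the compared groups alone and with protein-coding genes alone (edgeR adjusted p 0.0556 to 0.15), and in DESeq2 (adjusted p = 0.0868). Dnajc7, which binds Hsp70 and Hsp90 together, was called in Pelo -/- Lgr6 over Lgr5 (2.06 ± 0.58, edgeR adjusted p = 0.0227), a call lost without Pelo -/- Lgr6 replicate 1 or 2 or Pelo -/- Lgr5 replicate 2 (0.0664 to 0.115), with only genes of at least 5 CPM (0.0505) and with the compared groups alone (0.0676). Dnaja1, Dnaja2, Dnajb4, Dnajb6 and Dnajc2 were called in no comparison with Lgr5 under the main scaling, but with only genes of at least 5 CPM in the fit Dnajb6 was called lower in WT Lgr6 (-0.85, edgeR adjusted p = 0.024). Dnaja1 had the largest p of all 32 in Pelo -/- Lgr6 over Lgr5 (0.01, adjusted p = 0.986 in edgeR), with 124 to 181 CPM in Pelo -/- Lgr6 and 142 to 168 CPM in Pelo -/- Lgr5. Dnajb6 had it in WT Lrig1 over Lgr5 (0.14 ± 0.40), with 111 and 116 CPM in WT Lrig1 and 48.7 to 138 CPM in WT Lgr5.

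Of the nucleotide exchange factors, Bag1 was called higher than in Lgr5 in Pelo -/- Lrig1 (1.56 ± 0.44), Pelo -/- Lgr6 (1.80 ± 0.44) and WT Lgr6 (1.90 ± 0.44), and was at 1.41 ± 0.47 in WT Lrig1 (edgeR adjusted p 0.0246, 0.00765, 0.00386 and 0.0512). It had 77.8 to 157 CPM in the Lrig1 and Lgr6 libraries and 15.6 to 52.4 CPM in the Lgr5 libraries. These did not overlap, but on CPM of the raw total the highest Lgr5 library (72.6 CPM) passed the lowest of the others (60.0 CPM). Its WT Lgr6 call was lost without WT Lgr5 replicate 3 (edgeR adjusted p 0.0529) and with the compared groups alone (0.0534), that in Pelo -/- Lgr6 without Pelo -/- Lgr5 replicate 3 (0.0538) and that in Pelo -/- Lrig1 without Pelo -/- Lrig1 replicate 1 or 3 or Pelo -/- Lgr5 replicate 2 or 3 (0.0621 to 0.127). Hspa4, a relative of Hsph1, was called in Pelo -/- Lrig1 (1.25 ± 0.39) and Pelo -/- Lgr6 (1.53 ± 0.39) but not in WT. The Lrig1 call (edgeR adjusted p 0.0471) was lost without any 1 library of its groups (0.0506 to 0.197), and with RLE scaling, without the filter, with only genes of at least 5 CPM and with the compared groups alone (0.0591 to 0.0643). The Lgr6 call (0.0116) was lost without Pelo -/- Lgr5 replicate 3 (0.0735). Hsph1, the inducible Hsp110, had 41.7, 32.3 and 30.3 CPM in Pelo -/- Lrig1, 35.3 and 64.5 CPM in WT Lrig1, 46.7, 30.7 and 47.8 CPM in Pelo -/- Lgr6 and 42.9, 52.0 and 29.5 CPM in WT Lgr6. It had 31.4, 45.7 and 45.4 CPM in Pelo -/- Lgr5 and 13.8, 57.4 and 7.98 CPM in WT Lgr5, overlapped throughout and was not called. Hspa4l, another Hsp110, had the largest p of all 32 in Pelo -/- Lrig1 over Lgr5 (-0.02) and in WT Lgr6 over Lgr5 (-0.07 ± 0.36), but with only genes of at least 5 CPM in the fit it was called lower in WT Lgr6 (-0.89, edgeR adjusted p = 0.0396). Bag3, a stress-inducible factor that links Hsp70 to autophagy, had 18.1 to 41.4 CPM in Lrig1 and Lgr6 libraries and 22.0 to 70.4 CPM in Lgr5 libraries, and was not called under the main scaling. With only genes of at least 5 CPM in the fit it was called lower in Pelo -/- Lrig1 (-1.31) and Pelo -/- Lgr6 (-1.19) over Lgr5 (edgeR adjusted p 0.034 and 0.0431).

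Hspb1, a small heat shock protein that keeps damaged protein soluble, had 166, 136 and 119 CPM in Pelo -/- Lrig1, 164 and 181 CPM in WT Lrig1, 229.6, 221 and 228 CPM in Pelo -/- Lgr6 and 195, 174 and 138 CPM in WT Lgr6. It had 198, 72.2 and 65.2 CPM in Pelo -/- Lgr5 and 54.5, 58.5 and 47.2 CPM in WT Lgr5. Pelo -/- Lgr5 replicate 1 alone reached the range of the other populations. Hspb1 was called in WT Lrig1 (1.69 ± 0.41, edgeR adjusted p = 0.00678) and WT Lgr6 (1.66 ± 0.38, 0.00356) over Lgr5, and not in Pelo -/- Lrig1 (0.33 ± 0.37) or Pelo -/- Lgr6 (1.02 ± 0.38). The WT calls were lost without WT Lrig1 replicate 2 (edgeR adjusted p 0.18) and without WT Lgr5 replicate 3 in Lgr6 (0.0513), and under the filter at 5 CPM (0.0672 and 0.0526, at log2 fold changes of 0.88 and 0.83), and in Lgr6 with the compared groups alone (0.0509). Of the 50-base runs of Hspb1, 50.1% occur in another annotated gene, most of them in a pseudogene. Hspb8, its relative, was not called.

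Hsf1 (chr15:76477422-76501913) had 33.2, 16.6 and 25.2 CPM in Pelo -/- Lrig1, 19.2 and 21.2 CPM in WT Lrig1, 21.7, 11.3 and 19.8 CPM in Pelo -/- Lgr6 and 21.5, 33.7 and 23.7 CPM in WT Lgr6. It had 38.0, 11.6 and 23.6 CPM in Pelo -/- Lgr5 and 29.0, 9.74 and 3.50 CPM in WT Lgr5. The groups overlapped in every comparison with Lgr5, and the fold changes took both signs (0.04 and -0.47 in Pelo -/- Lrig1 and Lgr6, 0.52 and 0.90 in WT). The mitochondrial chaperonin pair shown above by its shared start region was not called either. Hspd1, its large subunit, had 126, 137 and 73.8 CPM in Pelo -/- Lrig1, 108 and 103 CPM in WT Lrig1, 136, 98.0 and 103 CPM in Pelo -/- Lgr6, 111, 171 and 106 CPM in WT Lgr6, 86.3, 68.7 and 41.9 CPM in Pelo -/- Lgr5 and 76.8, 134 and 29.4 CPM in WT Lgr5. Hspe1, its lid, had 98.1, 81.0 and 84.6 CPM in Pelo -/- Lrig1, 81.7 and 109 CPM in WT Lrig1, 66.3, 86.9 and 78.9 CPM in Pelo -/- Lgr6, 77.9, 176 and 111 CPM in WT Lgr6, 83.0, 37.1 and 19.5 CPM in Pelo -/- Lgr5 and 63.2, 116 and 24.8 CPM in WT Lgr5. Both were high in WT Lgr5 replicate 2 and low in WT Lgr5 replicate 3, so that the range within WT Lgr5 covered most libraries of the other groups.

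The 14 genes listed as heat-inducible from general knowledge (Hspa1a, Hspa1b, Hspa8, Hspa4l, Hsph1, Hsp90aa1, Dnaja1, Dnajb1, Dnajb4, Hspb1, Hspb8, Bag3, Hspd1 and Hspe1) and the other 18 were set side by side. Hspa8, named constitutive above, was kept among the 14 and is 1 of their higher calls in all 4 comparisons, so the split depends on where it is placed. Of the 14, 1 was called higher and 1 lower in Pelo -/- Lrig1 over Lgr5, 2 and 1 in Pelo -/- Lgr6, 3 and 1 in WT Lrig1, and 3 and 1 in WT Lgr6, with median log2 fold changes of 0.01, 0.31, 0.47 and 0.70. Of the other 18, 7, 9, 6 and 8 were called higher and none lower in edgeR, with medians of 0.93, 1.43, 1.27 and 1.43. Of all genes 7.85%, 9.95%, 11.1% and 12.2% were called in these comparisons, and of genes with a mean of at least 5 CPM 18.4%, 23.2%, 26.6% and 30.5%, so the counts among the 14 lie near the shares of genes at that level. The difference between the lists was not tested. With only genes of at least 5 CPM in the fit, edgeR called 2, 4, 3 and 4 of the 14 lower and 1, 1, 2 and 2 higher in that order, and of the other 18 it called Dnajb6 lower in WT Lgr6. These counts stand beside 2544, 3132, 3162 and 3666 of all 11061 genes called either way in that fit.

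Between the Lrig1 and Lgr6 populations, which are both marked in the upper follicle, no chaperone gene differed detectably. In edgeR 0 of 32 were called in Pelo -/- Lrig1 over Pelo -/- Lgr6 and 0 in WT Lrig1 over WT Lgr6, where 0.0% of all genes were called in each. DESeq2 called 0 of the 32 in each as well, beside 64 of 24762 genes in Pelo -/- and 50 of 23864 in WT. At an unadjusted p under 0.05 in edgeR there were 0 of the 32 in each. Over all 30405 genes tested there were 1277 in Pelo -/- and 1420 in WT at that unadjusted p. The smallest p-values belonged to Hspb1 (-0.69 ± 0.37), Dnajb4 (-0.64 ± 0.39) and Dnajb1 (-0.60 ± 0.39) in Pelo -/-, and to Dnajb4 (0.54 ± 0.42), Cct7 (0.43 ± 0.38) and Bag1 (-0.48 ± 0.48) in WT. Libraries did not overlap for 7 of the 32 genes in Pelo -/- Lrig1 over Lgr6, beside 9.68% of all genes, and for 2 in WT Lrig1 over Lgr6, beside 18.6%.

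Between libraries labelled Pelo -/- and WT no change was called in any of the 32 genes, in any population. Pelo itself was at -1.49 ± 0.83 in Lrig1, 0.09 ± 0.75 in Lgr6 and 0.31 ± 0.74 in Lgr5. It was not called, so loss of its RNA was not shown here. In Lrig1, Lgr6 and Lgr5, edgeR called 0 of 32 in Pelo -/- over WT, where 0.0%, 0.0% and 0.0197% of all genes were called, and 0.0%, 0.0% and 0.0542% of genes with a mean of at least 5 CPM. DESeq2 called 0 of the 32 in each, beside 28 of 22071, 18 of 27468 and 180 of 17601 genes in the same order. At an unadjusted p under 0.05 in edgeR there were 0 of the 32 in Lrig1, 0 in Lgr6 and 4 in Lgr5. Over all 30405 genes tested there were 1106, 1180 and 1901 at that unadjusted p. The lack of calls does not show that levels were equal: the 95% intervals of the log2 fold changes reached from -1.87 to 1.82 over the genes in Lrig1 and from -1.74 to 1.60 in Lgr6. In Lrig1 the smallest p-values belonged to Hspa1b (0.74 ± 0.40), Dnajb4 (-0.78 ± 0.42) and Dnajb1 (-0.71 ± 0.43). In Lgr6 they belonged to Hspe1 (-0.65 ± 0.48), Hspb1 (0.42 ± 0.37) and Dnajb4 (0.40 ± 0.38). The ribosome-bound pair was at -0.29 ± 0.57 (Hspa14) and 0.37 ± 0.58 (Dnajc2) in Lrig1, 0.12 ± 0.52 and 0.18 ± 0.51 in Lgr6, and 0.45 ± 0.52 and 0.67 ± 0.52 in Lgr5.

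In Lgr5 most of the genes had positive values in Pelo -/- over WT, 28 of 32 with a median log2 fold change of 0.41, against -0.14 over all genes tested and 0.27 over genes of at least 5 CPM. The count rests on WT Lgr5 replicate 3: without it 20 of 32 were above 0, with a median of 0.11 against -0.01 over all genes. Hspb1 (1.06 ± 0.38, edgeR adjusted p = 0.59), Dnajb1 (1.07 ± 0.39, 0.626) and Hspa1b (0.76 ± 0.35, 0.768) had the smallest p-values, with Cct7 next (0.75 ± 0.35, 0.78). Pelo -/- and WT libraries did not overlap for 3 genes, namely Hspb1, Cct7 and Hspa1b, beside 8.21% of all genes. In Lrig1 this held for 7 genes beside 18.9% of all genes, and in Lgr6 for 2 beside 8.24%. Hspa1b had the smallest p also for the mean of the effects over the populations, at 0.59 ± 0.21 (edgeR adjusted p = 0.949), where 0 genes of 32 and 0.0% of all genes were called. For that mean 26 of 32 genes were above 0 with all libraries and 20 without WT Lgr5 replicate 3. DESeq2 called 0 of the 32, beside 57 of 22967 genes, and 1 of the 32 had an unadjusted p under 0.05 in edgeR. Over all 30405 genes tested 1509 had such an unadjusted p for that mean.

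**Figure D5:**
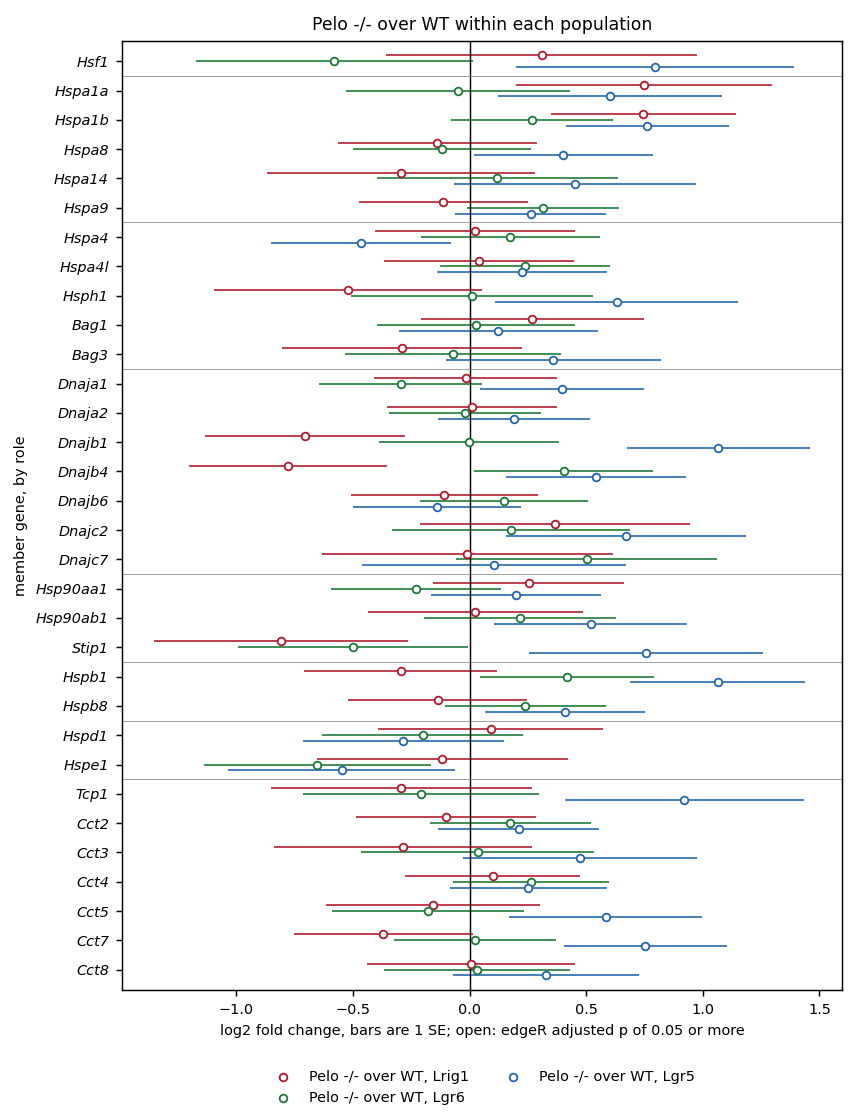
Log2 fold change of Pelo -/- over WT (x axis, bars 1 SE) for each of the 32 genes within the Lrig1, Lgr6 and Lgr5 populations. All points are open, since no edgeR adjusted p was under 0.05. Most Lgr5 points lie right of 0, with Hspb1 and Dnajb1 at 1.06 and 1.07.

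The difference between Pelo -/- and WT libraries was also compared between populations by interaction terms. edgeR called 0 of 32 genes and 0.0% of all genes for each of the 3 differences, and DESeq2 called 0 of the 32. Over all genes DESeq2 called 62 of 23864 for Lrig1 minus Lgr5, 56 of 20285 for Lgr6 minus Lgr5 and 52 of 23864 for Lrig1 minus Lgr6. At an unadjusted p under 0.05 in edgeR there were 5 for Lrig1 minus Lgr5, 0 for Lgr6 minus Lgr5 and 1 for Lrig1 minus Lgr6. Over all 30405 genes tested there were 1613, 1454 and 1278 in the same order. Dnajb1 had the smallest p for Lrig1 minus Lgr5, at -1.77 ± 0.58 (edgeR adjusted p = 0.844), from values of -0.71 in Lrig1 and 1.07 in Lgr5. Hspb1 (-1.36 ± 0.56) and Dnajb4 (-1.32 ± 0.57) came next, with Cct7 (-1.12 ± 0.52) and Stip1 (-1.56 ± 0.74) after them. Without WT Lgr5 replicate 3 the count at an unadjusted p under 0.05 for Lrig1 minus Lgr5 was 1. For Lgr6 minus Lgr5 the smallest p was that of Dnajb1 (-1.07 ± 0.55), and for Lrig1 minus Lgr6 that of Dnajb4 (-1.18 ± 0.57).

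Other genes of protein folding and turnover were counted from lists that the 32 genes do not enter. Their counts stand beside 7.85%, 9.95%, 11.1% and 12.2% of all genes called in Pelo -/- Lrig1, Pelo -/- Lgr6, WT Lrig1 and WT Lgr6 over Lgr5, and 18.4%, 23.2%, 26.6% and 30.5% of genes with a mean of at least 5 CPM. Several of the counts below, those of the co-chaperones and of the other Hsp70 and J-domain genes among them, lie near or under the shares of genes at that level. Of 31 proteasome genes, which encode the particle that degrades tagged protein, edgeR called 17 higher in Pelo -/- Lrig1, 22 in Pelo -/- Lgr6, 26 in WT Lrig1 and 30 in WT Lgr6, with medians of 1.44, 1.81, 2.15 and 2.19 on the log2 scale and none lower. The ATPase subunit Psmc5 had the smallest p in each, with log2 fold changes of 3.19 ± 0.37, 3.59 ± 0.38, 3.42 ± 0.40 and 3.24 ± 0.38. Of 10 prefoldin and chaperonin cofactor genes, 2, 4, 4 and 5 were called higher in the same order, led by Pfdn2, Pfdn6 and Txndc9. Of 20 other Hsp70 and Hsp90 co-chaperones the counts were 2, 3, 6 and 5, among them the Hsp90 activator Ahsa1 in all 4 (2.47 ± 0.49, 2.84 ± 0.50, 2.53 ± 0.52 and 2.95 ± 0.50). Of 17 other Hsp70 and J-domain genes they were 1, 2, 3 and 3, with Dnajc8 in all 4, and Hspa2 was called lower in Pelo -/- Lrig1 (-1.98 ± 0.47) and Pelo -/- Lgr6 (-2.31 ± 0.47).

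Of the nascent-chain pair Naca and Btf3, which bind at the ribosome exit, 0 of 2 were called in Pelo -/- Lrig1, 2 in Pelo -/- Lgr6, 1 in WT Lrig1 and 2 in WT Lgr6. Of 13 chaperones of the endoplasmic reticulum 2, 4, 6 and 6 were called higher, with Sdf2l1 at 5.87 ± 0.90 and 5.50 ± 0.89 in Pelo -/- and Calr at 1.75 ± 0.49 and 2.10 ± 0.46 in WT. Of 8 mitochondrial import and protease partners 2, 3, 4 and 4 were called higher. Of the heat shock factor genes Hsf2, Hsf4 and Hsf5 none was called, and the Hsf1-binding protein gene Hsbp1, listed with them, was called higher in each. No gene of the 4 other small heat shock genes tested was called in edgeR. In Pelo -/- over WT none of these lists held a called gene in any population by edgeR.

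Markers and stress genes that moved with these comparisons are given beside them. Summed over 6 suprabasal keratinocyte markers, levels were 3739 to 6562 CPM in Pelo -/- Lrig1, 4880 to 12278 CPM in Pelo -/- Lgr6 and 47.4 to 149 CPM in Pelo -/- Lgr5. They were 3594 to 13560 CPM in WT Lrig1, 4540 to 10822 CPM in WT Lgr6 and 51.1 to 142 CPM in WT Lgr5, and Ivl was at 0 in all Pelo -/- Lgr5 libraries. Summed over 7 bulge and germ markers, levels were 665 to 1253 CPM in the Lrig1 and Lgr6 libraries and 3651 to 5901 CPM in the Lgr5 libraries. Basal keratinocyte markers, 7 of 7 present, gave 18636 to 32161 CPM in Lrig1 and Lgr6 libraries and 6625 to 15759 CPM in Lgr5 libraries. Melanocyte markers gave 12.6 to 39.1 CPM in Lrig1 and Lgr6 libraries and 61.0 to 327 CPM in Lgr5 libraries, fibroblast markers 1.38 to 20.8 and 34.6 to 66.9 CPM, and Langerhans cell and macrophage markers 33.2 to 339 and 2.35 to 11.04 CPM. T cell markers gave 14.0 to 67.03 CPM in Lrig1 and Lgr6 libraries and 2.11 to 13.4 CPM in Lgr5 libraries. In the Langerhans cell, T cell, fibroblast and melanocyte lists a single gene each separated the populations. Cd74 was at 32.4 to 331 CPM in Lrig1 and Lgr6 libraries and 0.268 to 1.09 CPM in Lgr5 libraries. Thy1 was at 12.4 to 40.2 and 0.513 to 3.40 CPM, and Col1a2 at 0.362 to 4.59 and 16.8 to 47.2 CPM. Mitf, of the melanocyte list, was at 8.82 to 24.3 and 40.3 to 129 CPM. The other genes of these lists overlapped, so the sums do not show that a cell type was present. Counts from the mitochondrial genome were 4.66% to 7.68% of the total in Lrig1 and Lgr6 libraries and 3.69% to 15.3% in Lgr5 libraries, highest in Pelo -/- Lgr5 replicate 1 (15.3%) and WT Lgr5 replicate 1 (12.01%). The part of these cells and of this share in the chaperone differences was not tested.

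Immediate early genes, which cell dissociation can induce, are a second such list. Summed over 11 genes they were at 3849 to 6933 CPM in Pelo -/- Lrig1 and 8707 to 8825 CPM in WT Lrig1, and at 6660 to 10073 CPM in Pelo -/- Lgr6 and 2084 to 11299 CPM in WT Lgr6. In Lgr5 they were at 2474 to 9870 CPM in Pelo -/- and 933 to 2344 CPM in WT, which did not overlap. All 11 had positive values in Pelo -/- over WT in Lgr5, with a median log2 fold change of 1.61, while edgeR called 0 of them and 11 had an unadjusted p under 0.05. Over all 30405 genes tested 1901 had such an unadjusted p there. These values include WT Lgr5 replicate 3 and were not recomputed without it. In Lrig1 all 11 had negative values, with a median of -0.53, 0 calls in edgeR and 0 at an unadjusted p under 0.05. Against Lgr5, edgeR called 0 of 11 higher in Pelo -/- Lrig1, 1 in Pelo -/- Lgr6, 7 in WT Lrig1 and 9 in WT Lgr6, led by Zfp36 in WT (3.15 ± 0.51 and 2.97 ± 0.48). Their part in the values of Hspb1, Dnajb1 and Hspa1b was not tested.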

How the data were processed

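The authors deposited a table of read counts per gene, not normalized, for 17 libraries made by a full-length protocol from 1000 sorted cells each, per the labels. STAR, edgeR and the mouse build GRCm38 (mm10) are named, per the submitters' processing notes. For the counting tool, its annotation and its strand setting, nothing is given in the sources used here. Gene identifiers were paired with names and coordinates from an annotation of GRCm38, and 762 of 48820 identifiers had no match. Counts were fitted over all 17 libraries with 1 coefficient per group in edgeR 4.0.16 (R 4.3.3, limma 3.58.1), with TMM scaling, the robust quasi-likelihood test and a filter (minimum count 10, minimum total 15) that kept 30405 genes. P-values were adjusted by Benjamini-Hochberg within each comparison and called under 0.05, and each SE is the log2 fold change divided by the root of its F statistic. The fit was tested on simulated data. Alternatives were other size factors, no filter, a minimum mean of 5 CPM, DESeq2 1.42.0, the compared groups alone, a replicate block, Hspa1a and Hspa1b summed, and leaving out each library. A fit on protein-coding genes only was added after the data were seen. Replicates differed by more than sampling noise, with a chi-square per degree of freedom of at least 38.5.

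The 32 genes and all lists were chosen with earlier results of these data known, so no list was tested, and patterns shown by those results gain no independent support here. Every gene called in a comparison was to be named (up to 8 of smallest p in each direction), or the 3 of smallest p where none was called. A set of 13 genes of known role was to be given in every library, with the genes of lowest and highest p between populations.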

Additional observations from a re-analysis of the deposited data

How the results depend on the processing

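No call of the 32 genes changed direction in 592 recomputed values of the 43 called gene comparisons. Of these, 19 kept their call under every alternative and 23 lost it when some library was left out. The number called in WT Lgr6 over WT Lgr5 was 12 in the full fit and 7 with the compared groups alone, a fit that also tested 20130 instead of 30405 genes and had a median over all genes of -0.20 instead of -0.49. Calls over all genes were 3713 in the full fit and 2409 with the compared groups alone. The cause was not tested. Leaving out 1 library at a time gave 4 to 8 calls in Pelo -/- Lrig1 over Pelo -/- Lgr5 (9 in full), 6 to 12 in Pelo -/- Lgr6 over Pelo -/- Lgr5 (12), 7 to 14 in WT Lrig1 over WT Lgr5 (10) and 8 to 13 in WT Lgr6 over WT Lgr5 (12). The lowest count in the Pelo -/- Lrig1 comparison, 4, came without Pelo -/- Lrig1 replicate 1 or without Pelo -/- Lgr5 replicate 2 or 3, and there were 5 without Pelo -/- Lrig1 replicate 2 and 6 without Pelo -/- Lrig1 replicate 3. Calls over all genes fell too, from 2386 to 1366, 1476 and 1841 without Pelo -/- Lrig1 replicate 1, 2 and 3. In the Pelo -/- Lgr6 comparison they fell from 3026 to 1990, 2171 and 2058 without Pelo -/- Lgr6 replicate 1, 2 and 3. In the Pelo -/- Lgr6 comparison there were 7 calls without Pelo -/- Lgr5 replicate 2 and 6 without Pelo -/- Lgr5 replicate 3. All Pelo -/- over WT, interaction and Lrig1 over Lgr6 comparisons stayed at 0 calls among the 32 genes under every alternative that gave a value. The mean of the populations has no value with the compared groups alone. With WT Lrig1 reduced to 1 library, that sample is assumed to vary like the other groups.

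Replicate numbers were also entered as a block. Deviations of libraries with the same number correlated between -0.237 and 0.240 (median -0.0016), against a median of 0.0008 for different numbers. No pairing by number was seen, but so few libraries per group cannot exclude it. With the block, 9, 12, 11 and 14 of the 32 genes were called in the Pelo -/- Lrig1, Pelo -/- Lgr6, WT Lrig1 and WT Lgr6 comparisons with Lgr5, and 0 in the others.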
